A study of Mus musculus with 5 samples.

Results

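A set of 4 transcription factor genes was followed in bone marrow-derived dendritic cells (BMDCs), namely *Irf8*, the gene that the mice overexpressed, *Irf7*, *Prdm1* and *Ebf1*. They were chosen by name in the deposited table of genes that differed between *Irf8*-OE and control BMDCs. All 4 of 4 were found among its 1355 listed genes. There were 3 *Irf8*-OE samples and 2 control samples. The controls are numbered 1 and 2 in the sample titles, as here, but 2 and 3 in the sample descriptions. Whether a further control existed is not stated. *Irf8*-OE mice carried *Irf8* CAG-LSL together with *Itgax* Cre. The CAG-LSL cassette with a Flag-tagged *Irf8* sits at the H11 locus, and Cre from the *Itgax* (CD11c) promoter opens it in CD11c-expressing cells. Controls are *Irf8* CAG-LSL without Cre in the study's text and wild type in the sample labels. All mice were on the C57BL/6 background, 8 weeks old and described as male. All cultures received 5 ng/ml GM-CSF and 200 ng/ml Flt3L, were replated on day 9 and were collected on days 15 to 16, and the labels of all 5 samples list TNF-α stimulation, for which 20 ng/ml is given. Whether samples came from separate mice is not stated, so p-values measure only the spread between these samples.

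IRF8 is a transcription factor of the interferon regulatory factor (IRF) family that is needed for type 1 conventional dendritic cells (cDC1s), the subset that cross-presents antigen to CD8+ T cells. IRF7 belongs to the same family. It drives the genes for type I interferons and is itself induced by interferon, which closes a feedback loop. PRDM1, also called Blimp-1, is a zinc finger repressor best known from plasma cells, and EBF1 is a factor that B cells need from early in their development and that bone marrow stromal cells also express. The comparison asked whether these factors differed between *Irf8*-OE and control BMDCs, and whether the other 3 followed *Irf8* from sample to sample.

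*Irf8* lies on the plus strand of chromosome 8 of GRCm38 (120736358 to 120756694, ENSMUSG00000041515), with 7 annotated transcripts. *Irf7* lies on the minus strand of chromosome 7 (141262706 to 141266481, ENSMUSG00000025498), with 13 annotated transcripts. *Prdm1* lies on the minus strand of chromosome 10 (44437177 to 44528501, ENSMUSG00000038151), and *Ebf1* on the plus strand of chromosome 11 (44617317 to 45008091, ENSMUSG00000057098). Reads are counted over whole genes, so values are of all exons of a gene together. Transgenic *Irf8* shares its coding sequence with the endogenous gene, and reads from the 2 sources cannot be told apart in these values.

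The sequences before the starts of the 2 IRF genes are shown because these were the members whose levels ran in the same order over the *Irf8*-OE samples. The RefSeq windows (GRCm38.p6) cover 250 bases before and 50 bases after the start. That of *Irf8*, the first of 2, is chr8:120736108-120736407 on the plus strand, and that of *Irf7* is chr7:141266375-141266674 on the minus strand. Both strands were searched for the core of the interferon-stimulated response element (ISRE, a pair of GAAA repeats with 2 bases between them), the composite ETS and IRF element (GGAA, 2 bases, GAAA), TTCNNNGAA (the STAT-binding GAS element), CCCNNGGG (EBF) and TGANTCA (AP-1), and matches are in capitals.
Irf8: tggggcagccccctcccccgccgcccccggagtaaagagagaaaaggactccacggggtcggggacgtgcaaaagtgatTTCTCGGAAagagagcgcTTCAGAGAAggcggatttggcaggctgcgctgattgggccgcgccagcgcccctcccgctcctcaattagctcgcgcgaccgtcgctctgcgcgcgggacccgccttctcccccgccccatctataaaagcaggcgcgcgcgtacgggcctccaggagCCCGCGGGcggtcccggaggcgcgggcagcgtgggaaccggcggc
Irf7: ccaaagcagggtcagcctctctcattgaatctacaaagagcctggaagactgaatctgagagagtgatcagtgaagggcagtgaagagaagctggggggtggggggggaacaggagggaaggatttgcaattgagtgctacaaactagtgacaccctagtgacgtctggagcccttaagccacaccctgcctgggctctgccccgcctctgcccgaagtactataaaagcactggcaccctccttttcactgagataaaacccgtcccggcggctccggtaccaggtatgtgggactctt
The *Irf8* window held 2 matches to TTCNNNGAA, which begin 171 and 153 bases before the start, and 1 match to CCCNNGGG just after the start. The first pattern occurred in 8.29% and the second in 13.7% of 32817 promoter windows of this length. The *Irf7* window, which spans the outer start at 141266481 of the coordinates given above, held none of the 5 patterns. The window of *Prdm1* (chr10:44458699-44458998, minus strand) held TGAATCA, a match to the AP-1 pattern found in 7.81% of windows. It belongs to a start inside the gene, and not to the outer start at 44528501 of the coordinates given above. The first of 2 windows of *Ebf1* (chr11:44617850-44618149, plus strand) held TTTCCCTTTC, which is the ISRE core on the other strand and lies in a run of C and T, and 3.43% of windows held that pattern. This *Ebf1* window lies wholly inside the gene, after the outer start at 44617317 of the coordinates given above. None of these matches overlapped another. The second windows of *Irf8* (chr8:120738389-120738688) and *Ebf1* (chr11:44619978-44620277), at other starts, held none of the 5 patterns. The transgene is driven by CAG and not by the *Irf8* window.

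Levels are given in normalized counts, that is, a gene's reads over the size factor of its sample. Between 646123 and 1062127 reads per sample fell on listed genes, and library depth itself is unknown. A value of 1 read was worth between 0.934 and 1.12 normalized counts. The groups differed in more than the transgene. *Xist*, the RNA of the inactive X chromosome, was between 10772 and 13476 normalized counts in *Irf8*-OE, with a control maximum of 1.12, and the Y-linked *Ddx3y*, *Eif2s3y*, *Kdm5d* and *Uty* had 484 to 1385 in the controls and were at 0 in every *Irf8*-OE sample. A difference in sex therefore cannot be told apart from the transgene in any value below. Mast cell genes also moved. Of 15 mast cell and basophil markers 11 were listed, 2 higher and 9 lower in *Irf8*-OE, where 41% of all listed genes were lower. The higher ones were the protease genes *Mcpt8* and *Prss34*, at log2 differences of 2.79 and 3.64. The 11 summed to 38912 to 43320 with the transgene and to 253382 and 257772 without. *Cpa3* alone held 20272 to 24286 of the former sums and 175134 and 179473 of the latter. Of 10 general dendritic cell markers only *Fscn1* was listed, so the labelled cell type could not be checked on the others, *Itgax* among them. Since these are bulk samples, fewer cells of a type and less RNA per cell cannot be told apart. The part of these differences in the results below was not tested.

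*Irf8* had 2835 and 2747 normalized counts in the 2 control samples and 7141, 6519 and 6021 in *Irf8*-OE samples 1, 2 and 3. Every *Irf8*-OE sample was above both controls, the lowest by 2.12-fold. The mean rose 2.35-fold from 2791 ± 62.3 (SD, n = 2) to 6560.2 ± 561 (SD, n = 3), which on the scale log2(normalized counts + 1) was a difference of 1.23 (standard error 0.08, adjusted p = 8.0e-06 from limma over the 1355 genes). *Irf8* was thus already abundant in the controls.

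*Irf7* had 97.8 and 118 normalized counts in the controls and 427, 392 and 367 in *Irf8*-OE samples 1, 2 and 3. The groups were well apart, with the lowest *Irf8*-OE sample 3.11-fold above the highest control. The mean rose 3.66-fold from 108 ± 14.3 (SD, n = 2) to 395 ± 30.6 (SD, n = 3), a log2 difference of 1.87 (standard error 0.13, adjusted p = 1.0e-05 from limma). *Irf7* had the largest fold of the 4 factors at the deposited scaling, but under quantile normalization its log2 difference was 1.71 and that of *Irf8* 1.75. Its exons share 45 bases with *Phrf1* on the opposite strand, and strand use in counting is not given in the sources used here.

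*Prdm1* had 84.3 and 71.0 normalized counts in the controls and 145, 150 and 174 in *Irf8*-OE samples 1, 2 and 3. The groups did not overlap, but the gap was the narrowest of the 4, with the lowest *Irf8*-OE sample 1.72-fold above the highest control. The mean rose 2.01-fold from 77.7 ± 9.39 (SD, n = 2) to 156 ± 15.4 (SD, n = 3), a log2 difference of 1.0004 (standard error 0.15, adjusted p = 0.000558 from limma). This lies on the fold threshold of 1, and the call was lost without control sample 2, at 0.88, and without *Irf8*-OE sample 3, at 0.92, with adjusted p-values of 0.00729 and 0.00233 from limma.

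*Ebf1* was the least abundant, with 18.0 and 16.3 normalized counts in the controls and 51.8, 45.7 and 59.3 in *Irf8*-OE samples 1, 2 and 3. These rest on 16 and 17 reads in the controls and on 49 to 59 reads in *Irf8*-OE. The mean rose 3.05-fold from 17.1 ± 1.18 (SD, n = 2) to 52.3 ± 6.77 (SD, n = 3), a log2 difference of 1.55 (standard error 0.23, adjusted p = 0.000486 from limma). Here too every *Irf8*-OE sample was above both controls.

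**Figure D1:**
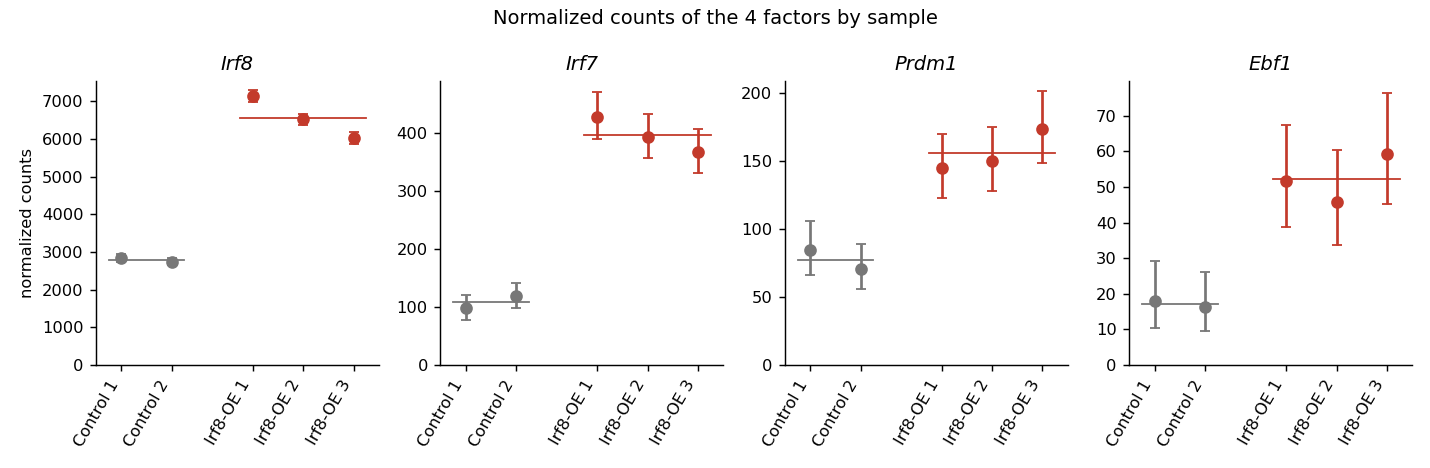
Normalized counts (y axis, linear, from 0) of *Irf8*, *Irf7*, *Prdm1* and *Ebf1* in the 2 control samples (grey) and 3 *Irf8*-OE samples (red), with exact Poisson 95% intervals of the reads as bars and group means as lines. In all 4 panels the *Irf8*-OE points lie above the control points, and the bars widen from *Irf8* to *Ebf1* as the reads become fewer.

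These 4 increases describe genes that had been chosen for a difference. The table holds only genes that the authors had called in these 5 samples, and 99.1% of its genes passed the same thresholds here, with 58.1% of all listed genes higher and 41% lower. The groups did not overlap in 100% of the listed genes. The 4 of 4 called higher are therefore no result about these factors. Adjusted p-values, above and below, were taken over these chosen genes only, so they are no independent test of a difference. With 3 samples against 2, a one-sided exact permutation test gave p = 0.1 for each factor, the smallest p that the 10 splits allow.

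Set per kilobase of exon, which allows genes to be compared, *Irf8* reached 930 ± 79.5 normalized counts with the transgene and 396 ± 8.83 without. *Irf7* followed at 105 ± 8.10 and 28.6 ± 3.79, *Prdm1* at 28.01 ± 2.76 and 13.9 ± 1.68, and *Ebf1* at 5.36 ± 0.694 and 1.76 ± 0.121 (SD, n = 3 and n = 2). The order of the 4 genes was the same in every sample and no neighbours overlapped. The exon length of *Irf7*, 3776 bases, equals its whole span and 6 of its annotated transcripts retain introns, so its level per kilobase of spliced mRNA is understated.

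Over the *Irf8*-OE samples, *Irf8* itself was highest in sample 1 and lowest in sample 3. The exact Poisson 95% intervals of its reads did not overlap between any 2 of these samples, at 6980 to 7305, 6367 to 6673 and 5870 to 6175 normalized counts. Sample 1 was 1.19-fold above sample 3 (95% interval 1.15 to 1.23). All such intervals cover counting error only. Listed genes in general differed between these samples by more than that. Mean chi-square per gene was 8.23 between samples 1 and 3, 4.63 between samples 1 and 2 and 2.83 between samples 2 and 3. The coefficient of variation of *Irf8* over the 3 samples was 8.55%, against a median of 6.37% for the 20 listed genes within 1.5-fold of its level.

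*Irf7* ran in the same order as *Irf8*, with sample 1 highest and sample 3 lowest. Its step from sample 1 to sample 3 was 1.17-fold (95% interval 1.01 to 1.34), close to that of *Irf8*. Neighbours did not differ beyond counting error, since the ratio of sample 1 to sample 2 had an interval from 0.952 to 1.25 and that of sample 2 to sample 3 one from 0.927 to 1.23. The variation of *Irf7* over the 3 samples, 7.74%, was near the median of 7.47% for 142 genes of a like level.

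*Prdm1* ran in the opposite order, lowest in sample 1, where *Irf8* was highest. Sample 1 was at 0.833 times sample 3, but the interval from 0.665 to 1.04 includes 1, and no pair of samples was apart. The interval also lies below that of *Irf8* for the same pair of samples, so the step of *Irf8* was not shared by *Prdm1* within counting error. *Ebf1* was highest in sample 3 and lowest in sample 2, an order of its own. The ratio of sample 2 to sample 3 was 0.772 (95% interval 0.518 to 1.15), again within counting error. For sample 1 against sample 3, the *Ebf1* interval of 0.593 to 1.29 holds both 1 and the ratio of *Irf8*, so at this depth it could not be seen whether *Ebf1* followed *Irf8*.

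**Figure D2:**
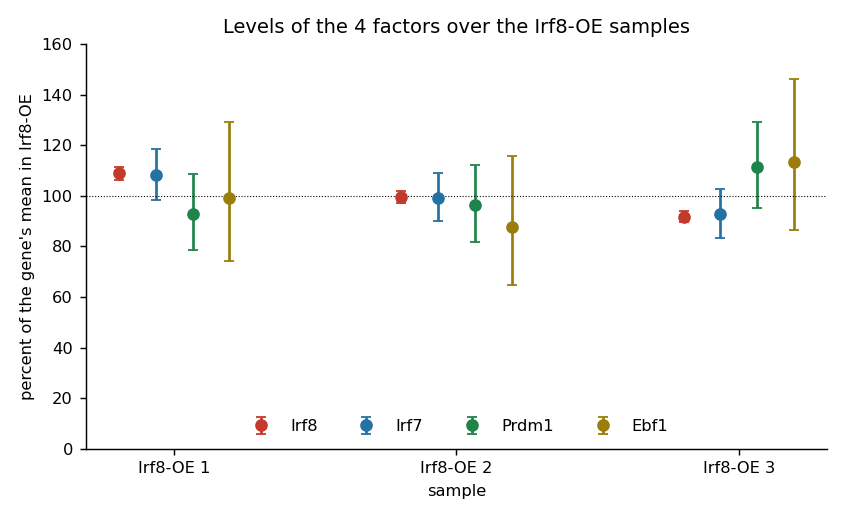
Level of each factor in the 3 *Irf8*-OE samples as a percent of its own mean in *Irf8*-OE (y axis, linear, from 0), with exact Poisson 95% intervals as bars. *Irf8* (red) and *Irf7* (blue) step down from sample 1 to sample 3 together, *Prdm1* (green) and *Ebf1* (brown) are highest in sample 3, and all but the *Irf8* intervals overlap between samples.

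The shared order of *Irf8* and *Irf7* was a common one. There are 6 possible orders of 3 samples, and 191 of the 797 listed genes with the higher mean in *Irf8*-OE (24.0%) had that of *Irf8*. The reverse order of *Prdm1* was seen in 170 (21.3%), and that of *Ebf1* in 107 (13.4%). With 3 samples no test of an order can pass 0.05. The order of each of the 4 factors was the same after rescaling to the same sum over the listed genes and after quantile normalization.

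The ratio of each factor to *Irf8* in the same sample shows how far it kept pace. *Irf7* was at 5.99%, 6.02% and 6.09% of the *Irf8* value in *Irf8*-OE samples 1, 2 and 3, and at 3.45% and 4.30% in the controls. The *Irf8*-OE ratios had an SD of 0.0525 percentage points and lay above both controls. Counting error was wider than that spread, with exact 95% intervals of 5.43% to 6.59%, 5.44% to 6.64% and 5.46% to 6.77%, and of 2.75% to 4.27% and 3.56% to 5.15% in the controls, so how closely the ratio was kept cannot be seen at this depth. Such a rise of the ratio, with every *Irf8*-OE sample above every control, was seen in 34.1% of the other 1354 listed genes. *Prdm1* was at 2.03%, 2.31% and 2.89% in *Irf8*-OE and at 2.97% and 2.58% in the controls. These overlapped, so the rise of *Prdm1* over the controls was not apart from that of *Irf8*. Within *Irf8*-OE the *Prdm1* ratio was highest where *Irf8* was lowest. A gene of constant level would show this too, since *Irf8* is the denominator. The exact 95% intervals were 1.71% to 2.38%, 1.96% to 2.70% and 2.47% to 3.36% in samples 1, 2 and 3. *Ebf1* was at 0.725%, 0.702% and 0.984% in *Irf8*-OE and at 0.634% and 0.594% in the controls, again with no overlap of the values. The intervals overlapped, however, from 0.519% to 0.929% in sample 2 of *Irf8*-OE and from 0.362% to 1.03% in control sample 1. A ratio below the controls in every *Irf8*-OE sample was seen in 43.2% of the listed genes and overlap in 22.7%.

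**Figure D3:**
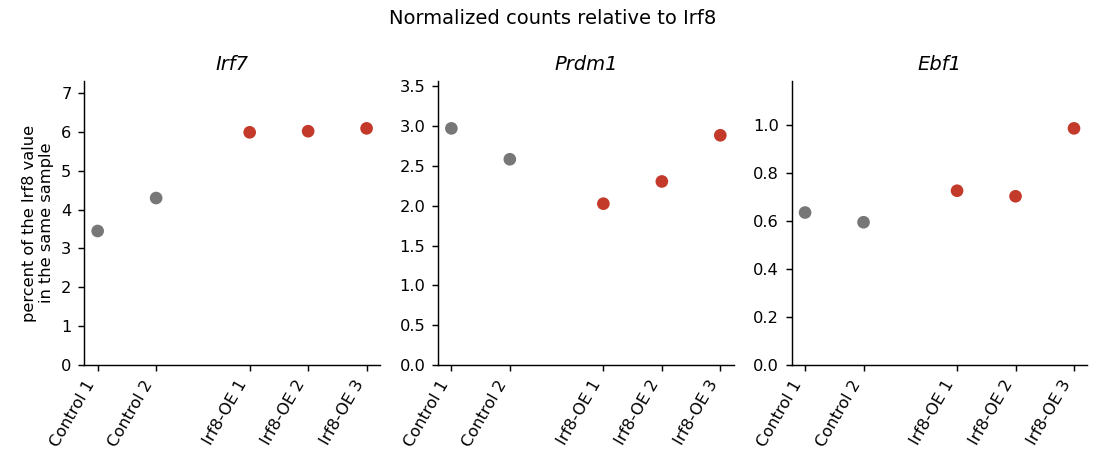
Normalized counts of *Irf7*, *Prdm1* and *Ebf1* as a percent of the *Irf8* value in the same sample (y axes, linear, from 0), for control (grey) and *Irf8*-OE (red) samples. The *Irf7* ratio is between 5.99% and 6.09% over the 3 *Irf8*-OE samples, and the *Prdm1* ratios of the 2 groups overlap.

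Genes whose profile over the 5 samples was closest to each factor were found by the root mean square difference of log2 values, centred on each gene, among the 843 other genes with a mean of at least 50 normalized counts, or 844 for *Ebf1*. Nearest to *Irf8* were *Ifitm3*, an interferon-induced gene that restricts virus entry, at a difference of 0.019, *Slc25a29*, a mitochondrial carrier, at 0.029, and *Xaf1*, an interferon-induced gene tied to apoptosis, at 0.031. *Ifitm3* had 4845 and 4676 normalized counts in the controls and 12469, 10935 and 10357 in the *Irf8*-OE samples. Its fold was close to that of *Irf8* and its order the same. Genes were ranked by likeness over these same samples, so this is no separate result. *Irf7* stood 302nd in this ranking of likeness to *Irf8* and *Prdm1* 203rd, with differences of 0.33 and 0.21. Nearest to *Irf7* were *Fxyd2*, *Alpl* and *Col1a2*, at 0.032, 0.047 and 0.077. *Fxyd2* encodes a regulator of the sodium pump, *Alpl* alkaline phosphatase and *Col1a2* a chain of type I collagen. Nearest to *Prdm1* were *Spats2*, *Ehd2* and *Ly75*, at 0.042, 0.070 and 0.077, of which *Ly75* encodes the uptake receptor DEC-205 of dendritic cells. Nearest to *Ebf1* were *Mdga1*, *Itgae* and *Trpc6*, at 0.061, 0.076 and 0.090, and *Itgae* encodes CD103. *Itgae* had 50.6 and 52.8 normalized counts in the controls and 164, 144 and 178 in *Irf8*-OE. Its order over the *Irf8*-OE samples was that of *Ebf1*, again in a gene picked for its likeness.

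Of the 9 IRF genes, *Irf7* and *Irf8* were listed and both were higher. Genes that the table does not list, among them *Irf1*, *Irf4* and *Irf9*, are not analysed here. Of 23 genes that act before IRF7, among them interferon receptor chains, Toll-like receptors and adaptors, 0 were listed, and of 19 interferon genes 0 were listed. That list is not complete. Looked at after its values were seen, *Dhx58*, a RIG-I-like receptor outside it, had 462, 467 and 417 normalized counts in *Irf8*-OE and 189 and 162 in the controls, a log2 difference of 1.35, and *Ifi204*, a DNA sensor, had one of 1.74. Of 40 interferon-stimulated genes 22 were listed. Of these, 21 were higher and 1 was lower in *Irf8*-OE, where 58.1% of all listed genes were higher. The median log2 difference of the 22 was 1.73, against 1.14 over all 1355 listed genes and 1.83 over the 787 called higher. *Oasl2*, an antiviral OAS-like gene, had a mean of 1008 ± 35.4 normalized counts (SD, n = 3) against 158 ± 15.3 in the controls (SD, n = 2) and rose by a log2 difference of 2.67. *Ifi27l2a* rose from 288 ± 12.6 to 963 ± 125, *Oas1a* from 491 ± 19.6 to 1090.3 ± 29.6 and *Slfn5* from 583 ± 36.0 to 1223 ± 69.9. *Usp18*, which encodes a brake on interferon receptor signaling, had a log2 difference of 1.01. *Dtx3l*, which encodes a ubiquitin ligase, was the 1 that fell, from 1116 and 1043 normalized counts in the controls to 154, 178 and 182 in *Irf8*-OE, a log2 difference of -2.65. Over the *Irf8*-OE samples, 6 of the 21 higher genes ran in the order of *Irf8* and *Irf7*, and 6 in the reverse order.

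For *Irf8*, markers of cDC1s were sought. Of 18 such genes 3 were listed, and all 3 were higher, as were 58.1% of all listed genes. *Ly75* had a log2 difference of 1.01, *Itgae* of 1.62 and *Tlr11*, a sensor of profilin, of 1.75. *Batf3*, *Clec9a* and *Xcr1* were not listed. *Cd24a*, which cDC1s carry but many other cells do too, was not in the list of 18 and was looked at after its values were seen. It fell, from 9688 and 10426 normalized counts in the controls to 3564, 3958 and 4042 in *Irf8*-OE, a log2 difference of -1.38. Of 12 genes of type 2 dendritic cells 4 were listed, 3 higher and 1 lower, where 58.1% of all listed genes were higher. *Mgl2*, a lectin, was at 1.12 and *Cd209a* at -3.03. Of 15 macrophage markers 8 were listed and all 8 were higher, against 58.1% of all listed genes, with a median of 2.33. Their sum rose from 4710 and 4901 normalized counts in the controls to between 23337 and 28075 in *Irf8*-OE, and 5 of the 8 had the sample order of *Irf8*, which 23.9% of all genes called higher had. The complement genes *C1qa*, *C1qb* and *C1qc* were among these, with log2 differences of 3.72, 2.19 and 2.46. The share of this in the values of *Irf8* and *Irf7* was not tested.

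For *Prdm1*, 2 of 16 genes of antibody-secreting cells were listed, and both were higher, where 58.1% of all listed genes were higher. *Jchain*, which joins IgA and IgM chains into polymers, had 278, 331 and 320 normalized counts in *Irf8*-OE and 0 and 3.84 in the controls. *Mzb1*, an endoplasmic reticulum protein of B and plasma cells, had 19.2, 25.2 and 15.1 against 0 and 2.88. Neither had the sample order of *Prdm1*. The list held no immunoglobulin genes, which were looked at after their values were seen. Of the 60 listed, 58 were called higher and 2 lower, where 58.1% of all listed genes were higher. In both controls 50 of the 60 were at 0. Summed, the 60 came to 801 and 856 normalized counts in the controls and to 6713, 6270 and 7012 with the transgene. *Ighv1-23*, a lower one, alone held 518 and 523 of the control sums and had 30.7, 33.6 and 35.2 in *Irf8*-OE. *Igha*, the constant region of IgA, had 1478, 1231 and 1360 normalized counts against 0 and 1.92, *Ighm*, that of IgM, 2047, 1834 and 2169 against 172 and 206, and *Igkc*, that of the kappa light chain, 1365, 1253 and 1574 against 52.8 and 66.2. Genes of this family are near-identical in parts, so the split of reads between them is uncertain. *Sdc1*, *Xbp1* and *Tnfrsf17*, defining genes of plasma cells, were not listed. Whether plasma cells in the *Irf8*-OE cultures had a part in the rise of *Prdm1* was not tested.

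For *Ebf1*, both its B lineage and its stromal setting were followed. Of 31 B lineage genes 5 were listed, 3 higher and 2 lower, where 58.1% of all listed genes were higher and 41% lower. *Cd79a*, of the B cell receptor complex, had 41.2, 22.4 and 22.1 normalized counts against 5.62 and 6.72, its partner *Cd79b* 39.3, 33.6 and 37.2 against 13.5 and 13.4, and the coactivator gene *Pou2af1* 22.05, 20.5 and 18.1 against 1.12 and 0.960. The lower ones were *Cd55*, a complement regulator found on many cells, at -2.15, and *Bank1* at -1.08. *Pax5* and the other EBF genes were not listed. The immunoglobulin genes given above for *Prdm1* are B lineage genes too. Of 20 stromal genes 10 were listed, 9 higher and 1 lower, where 58.1% of all listed genes were higher. The median of the 10 was 1.77, against 1.14 over all listed genes and 1.83 over those called higher. *Col1a1* had a log2 difference of 3.13, *Postn* of 3.16 and *Cxcl12*, the chemokine of stromal niche cells, had 469, 461 and 442 normalized counts against 77.5 and 106. *Lepr*, the leptin receptor of marrow stromal cells, fell, at -1.66. The sum of the stromal genes was 11928 to 12977 normalized counts in *Irf8*-OE and 3560 and 3678 in the controls. The part of either cell type in the rise of *Ebf1* was not tested.

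**Figure D4:**
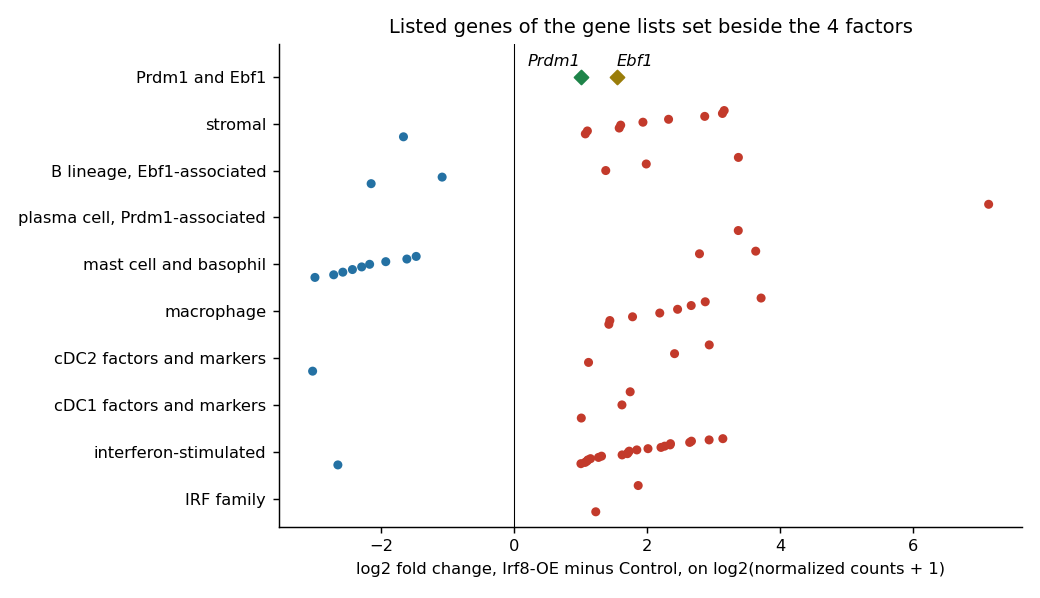
Log2 difference (x axis, *Irf8*-OE minus control, on log2(normalized counts + 1)) of each listed gene of 9 gene lists, higher in red and lower in blue, with *Prdm1* and *Ebf1* as diamonds in the top row. Interferon-stimulated, macrophage and stromal genes lie mostly to the right of 0 and mast cell genes mostly to the left.

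Scaling moved all 4 factors more than any sample did. The deposited scaling was kept for the values above, and which genes it rests on is not given in the sources used here. Where a new scaling was estimated from the listed genes alone, the log2 difference of *Irf8* ran from 0.28 to 1.89, that of *Irf7* from 0.92 to 2.52, that of *Prdm1* from 0.061 to 1.65 and that of *Ebf1* from 0.66 to 2.18. All stayed above 0. Such scalings take most genes, or their sums or distribution, as unchanged between samples. Genes chosen for a difference do not meet this, so the ranges show dependence on scaling and not the likely size of the change. With each sample left out in turn under the deposited scaling, *Irf8* stayed between 1.17 and 1.29, *Irf7* between 1.73 and 2.00, *Prdm1* between 0.88 and 1.12 and *Ebf1* between 1.45 and 1.64.

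**Figure D5:**
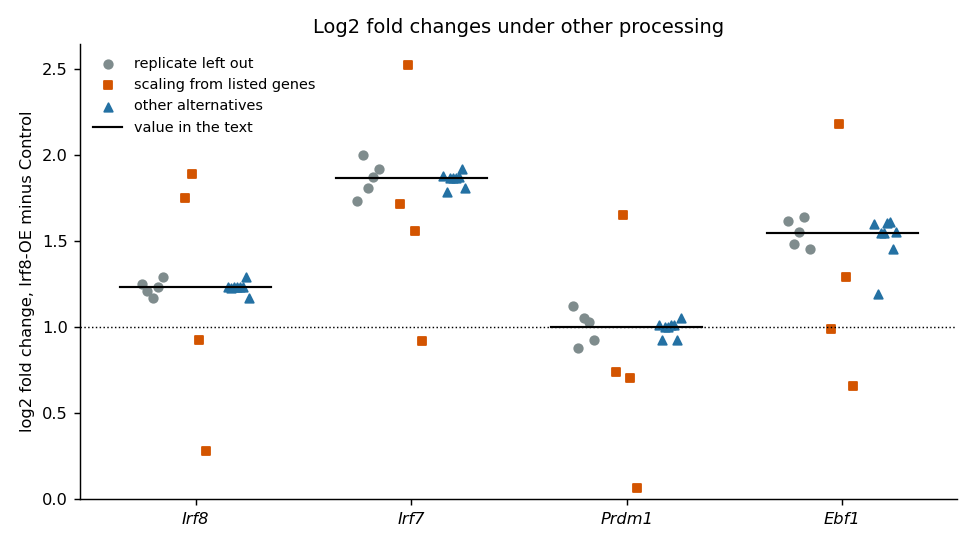
Log2 difference of the 4 factors (y axis, *Irf8*-OE minus control) as given above (black line), with 1 sample left out (circles), with a scaling estimated from the listed genes (squares) and under other alternatives (triangles). The dotted line is the fold threshold of 1, on which *Prdm1* lies, and the squares spread farthest for all 4 genes.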

How the data were processed

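RNA-seq of 3 *Irf8*-OE and 2 control BMDC samples was analysed from the authors' table. The authors deposited normalized counts (signal values), 1 mean per group, gene lengths and annotation, with other values, namely the log2 fold changes, p-values and adjusted p-values of their own comparison, which were not used. The submitters' processing notes name fastp, HISAT2 2.0.5, featureCounts 1.5.0-p3, DESeq2 1.20.0, edgeR 3.22.5 and mm10. The list is limited to genes that the authors called, at a corrected p below 0.05 and a log2 change beyond 1 in size. All samples had 100% of values within 0.001 reads of a whole multiple of the value of 1 read, so reads were recovered (in the third *Irf8*-OE sample 1 read is 1.004 normalized counts). Of 1355 genes, 1313 have the same coordinates in GENCODE vM21 (GRCm38), the 4 factors among them.

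The log2(normalized counts + 1) values of the 2 groups were compared with limma 3.58.1 in R 4.3.3, using a mean-dependent prior variance and no covariate, with Benjamini-Hochberg adjustment over 1355 genes, and called at an adjusted p under 0.05 and an absolute log2 difference above 1. That scale understates changes of low genes. The fit was tested on simulated data with a fixed dispersion and mostly unchanged genes, unlike the listed genes. edgeR 4.0.16 and DESeq2 1.42.0 on recovered reads were alternatives. Intervals are exact 95% Poisson or binomial (scipy 1.17.1). Mean chi-square per gene between replicates was 2.40 to 8.23, above sampling noise. The members and gene lists were chosen with earlier results of these data known. Named are the factors, listed IRF genes, up to 6 most abundant listed genes of each list, the 3 closest genes to each factor and the 5 most changed factors with a mean of at least 50. Others, such as *Cxcl12*, were named after their values were seen.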

Additional observations from a re-analysis of the deposited data

How the results depend on the processing

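All 4 factors were higher in *Irf8*-OE under each of the 17 alternatives tried. The call of *Irf8* held in 15, of *Irf7* in 16, of *Ebf1* in 15 and of *Prdm1* in 10. These counts include the scalings estimated from the listed genes alone, whose assumptions are not met by genes chosen for a difference. Scalings estimated from the listed genes alone shifted the median log2 difference of all genes by -0.33 (quantile normalization), 0.65 (equal sums), -0.31 (TMM) and -0.95 (DESeq2's size factors), and the share of calls that were higher from 58.6% to 49.4%, 74.3%, 51.5% and 34.4%. Under DESeq2's size factors *Irf8* fell to 0.28, *Irf7* to 0.92, *Prdm1* to 0.061 and *Ebf1* to 0.66, with adjusted p-values from DESeq2 of 0.00834, 4.2e-06, 0.814 and 0.176, and 851 genes were called in place of 1343. Under TMM *Irf8* was at 0.92 and *Prdm1* at 0.70, and under quantile normalization *Prdm1* was at 0.74 and *Ebf1* at 0.99. A pseudocount of 10 put *Prdm1* at 0.92. Kept at the deposited scaling, an alternative added after the values were seen, edgeR and DESeq2 called 1353 and 1354 genes and all 4 factors.

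With each sample left out in turn, *Prdm1* ran from 0.88 to 1.12, and the count of called genes from 1238 to 1318. The lone control left in 2 of these fits is assumed to vary like *Irf8*-OE. The correlations of same-numbered deviations were -0.009 and 0.042 by title and -0.042 and -0.041 by description, so no pairing by replicate number was seen. With 2 controls their deviations mirror each other, so these values are not independent and cannot exclude a pairing. The block by title, in which the third *Irf8*-OE sample has no partner and adds nothing, put *Prdm1* at 0.92, and neither block changed another call, with 1319 and 1271 genes called. The depth of the libraries is unknown, and reads of *Ebf1* and *Prdm1* limit any order over samples.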

Other observations

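The table gives a transcription factor family for 72 listed genes. Of these, 49 were higher and 23 lower in *Irf8*-OE, where 58.1% of all listed genes were higher and 41% lower. The median log2 difference of the 72 was 1.32, against 1.14 over all listed genes. Among the 49 higher factors *Irf8* stood second by its level in *Irf8*-OE, without regard to gene length, but 41st by its log2 difference. *Irf7* stood 16th, *Ebf1* 25th and *Prdm1* 48th by log2 difference. Among factors with a mean of at least 50 normalized counts, the largest change was that of the Y-linked *Kdm5d*, which was at 0 in all *Irf8*-OE samples, and the next were immediate early genes. *Fosb* had a mean of 3358 ± 214 normalized counts in *Irf8*-OE (SD, n = 3) against 155 ± 29.8 (SD, n = 2), and its log2 difference was 4.44 (standard error 0.12, adjusted p = 4.1e-07 from limma). *Fos* rose from 499.8 ± 5.21 to 5889 ± 275, a difference of 3.55, and the orphan receptor gene *Nr4a1* by 3.71. *Mef2c*, a factor of lymphoid and myeloid development, rose from 46.5 ± 0.667 to 434 ± 55.6, a difference of 3.19.

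Of 12 neutrophil genes 5 were listed, 3 higher and 2 lower, where 58.1% of all listed genes were higher. *Mpo*, the myeloperoxidase gene of granulocyte precursors, had 997, 1048 and 943 normalized counts in *Irf8*-OE against 10.1 and 11.5 in the controls. *Elane* and *Prtn3* rose less, at log2 differences of 1.16 and 1.41. *Ly6g* of mature neutrophils had 6.71, 10.3 and 12.1 normalized counts against 175 and 154, and *Cebpe* fell too, at a log2 difference of -1.42. *Siglech*, of plasmacytoid dendritic cells, had 14.4 to 15.1 in *Irf8*-OE and 0 in both controls.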
